A study of Homo sapiens with 145 samples.

Results

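The effect of 300 µM methyl methanesulfonate (MMS) on HT-1080 cells was measured on 12 of the 145 arrays of a series that also exposed these cells to etoposide and quercetin. The 12 arrays were chosen by their titles, which give 6 arrays at 300 µM MMS and 6 arrays of the matching vehicle, each set numbered 1 to 6. HT-1080 is an established human fibrosarcoma line, and all arrays come from this single line with no engineered allele named. The exposed cells received 300 µM MMS dissolved in dimethyl sulfoxide (DMSO) for 24 h, and the vehicle cells received DMSO alone for the same time. DMSO made up 0.1% of the serum-containing medium in both groups, and cells had been plated in multiwell dishes a day before dosing. MMS was also given at 1, 3, 10, 30 and 100 µM (6 arrays each) and at 500 µM (5 arrays), and these groups shared the vehicle arrays with the 300 µM group. Total RNA was amplified from the 3′ end, labelled with biotin and hybridised to Affymetrix arrays. The labels do not say whether the numbers stand for separate cultures, so the p-values measure a spread between arrays that may be technical.

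MMS is a direct-acting alkylating agent that methylates ring nitrogens of guanine and adenine in DNA, and it also methylates RNA and protein. Damaged bases are removed mainly by base excision repair, which starts with a DNA glycosylase, or are reversed directly by demethylases, while unrepaired lesions stall replication forks. Stalled forks and strand breaks activate the checkpoint kinases and the transcription factor p53, whose targets arrest the cell cycle or promote apoptosis. HT-1080 is known as a line with wild-type p53. Electrophilic agents can also modify the cysteines of KEAP1 and so release NRF2, the transcription factor of antioxidant and detoxification genes.

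Levels are the deposited log2 expression values of 1 probe set per gene, and a mean under 4 was not taken to be above background. Where a group mean was under 4, the size of the change is uncertain. A change is the log2 value at 300 µM minus that in vehicle with its standard error (SE), fitted with limma and with the replicate number as a block. The SE and p-value of a gene rest on 1 estimate of its spread over all 8 MMS groups. They may be too small for genes that vary more at 300 µM than in the other groups. SDs at 300 µM and in vehicle were, for example, 1.27 and 0.10 for DPYD, 1.24 and 0.24 for TENM2 and 0.94 and 0.36 for GJB2. Calls required at least a 1.5-fold change with an adjusted p (Benjamini-Hochberg, over all genes) under 0.05. Of the 16 mesenchymal and fibrosarcoma markers listed, 12 had a mean of at least 4 in each group, and the list averaged 7.19 to 7.41 over the 300 µM arrays and 7.71 to 7.85 over the vehicle arrays. Of the 9 epithelial markers in this panel only KRT8 and KRT18 reached 4 in either group. In the panel 1 of 6 blood markers and 1 of 7 endothelial markers did so, and EPCAM, CDH1, PTPRC and PECAM1 were below it. A wider list of 21 epithelial genes had 5 tested members, which averaged 6.80 to 7.13 over the vehicle arrays and 6.38 to 7.46 over the 300 µM arrays. Among the mesenchymal markers, NT5E, THY1, COL1A2 and PDGFRB were below 4. Array medians lay between 3.08 and 3.16, and no 2 arrays held identical values.

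The arrays numbered 5 stood apart from the others. The 46 measured genes of G2 phase and mitosis averaged 6.81 in the 300 µM array of number 5, against 8.76 to 9.17 in the other 300 µM arrays, and 8.58 in its vehicle array, against 8.95 to 9.23 in the other vehicle arrays. The 36 genes of DNA replication averaged 7.60 in both arrays of number 5 and 8.24 to 8.53 in the others. The median size of the change over the called genes was 1.21 in number 5 and 0.68 to 0.97 in the other 5 numbers. Over all genes, the change in number 5 at 300 µM correlated at 0.79 with the mean 300 µM change of the other numbers. With their mean 500 µM change it correlated at 0.86. The order was reversed for the other 5 numbers, at 0.76 to 0.91 with 300 µM and 0.55 to 0.74 with 500 µM. Counts of gene lists are therefore also given without number 5 wherever these differ, and the part of these arrays in a result was otherwise not tested. Gene lists are read against the shares over all genes that are given next.

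At 300 µM, 1447 of 12070 genes tested changed against vehicle, or 12.0% of them. Of these, 531 rose (4.40% of genes tested) and 916 fell (7.59%). Falls were also the larger changes: 43 genes fell and 10 rose by at least 4-fold, and 356 fell and 98 rose by at least 2-fold, while the median change over all genes was 0.026. The 2 sets of arrays did not overlap for 966 of the called genes, or 66.8% of them, and for 16.2% of all genes tested. Without number 5, 1226 genes were called, 465 of them higher (3.85%) and 761 lower (6.30%), and 1167 genes were called in the same direction in both fits. These are whole-culture RNA levels, in which fewer cells of a kind and less RNA per cell cannot be told apart.

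The largest rise was that of AKR1C1, a cytosolic aldo-keto reductase of steroids and reactive carbonyls and a well-known NRF2 target. Its lowest, median and highest values were 9.89, 10.19 and 10.65 in the 300 µM arrays, against 5.29, 5.40 and 6.13 in the vehicle arrays. The change of 4.69 ± 0.15 (SE; adjusted p = 2.22e-26) is 25.8-fold, and every 300 µM array lay far above every vehicle array. Its neighbour AKR1C2 had 8.09, 8.23 and 8.75 at 300 µM and 5.44, 5.69 and 5.84 in vehicle, a change of 2.61 ± 0.15 (adjusted p = 2.41e-18). The AKR1C genes are near-identical copies, so their probe sets may share signal. AKR1B10, another reductase of the superfamily, rose by 1.85 ± 0.11 to 5.86 ± 0.24 at 300 µM, against 4.01 ± 0.22 in vehicle (mean ± SD, n = 6 each), without overlap.

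SPANXC, an X-linked cancer-testis antigen of a multigene family, had 7.93, 8.39 and 9.23 at 300 µM and 4.47, 4.79 and 4.87 in vehicle, and the groups were widely separated. It rose by 3.82 ± 0.16 (adjusted p = 6.77e-23), although its probe set may also detect its near-identical family members. NECTIN4, a cell adhesion molecule of adherens junctions, had 7.03, 8.17 and 8.41 at 300 µM, against 4.24, 4.83 and 5.72 in vehicle, a change of 3.06 ± 0.14. IL13RA2, a decoy receptor for an interleukin, reached 5.03, 5.75 and 7.60 at 300 µM and had 2.90, 3.04 and 3.36 in vehicle, where all arrays were under 4, so that its change of 2.93 ± 0.23 is uncertain in size. The same limit holds for the cysteine protease inhibitor CSTA (2.87 ± 0.15), the pseudogene NMRAL2P (2.88 ± 0.16), the filamin-interacting FILIP1 (2.29 ± 0.15), the long non-coding RNA OVAAL (2.08 ± 0.17), the endocytic adaptor STON2 (1.97 ± 0.15) and the tryptophan-catabolic enzyme KYNU (1.81 ± 0.16). SERPINB5, a serpin known as maspin, had 9.92, 10.12 and 10.42 at 300 µM and 7.46, 8.39 and 8.57 in vehicle, a rise of 1.91 ± 0.13 without overlap. For KYNU most of its probe sets were not called.

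Among the genes that fell, LRRC17, a secreted leucine-rich repeat protein, changed most. Its values were 2.80, 3.59 and 3.74 at 300 µM and 7.26, 7.42 and 7.79 in vehicle, so the 300 µM mean was under 4 and the fall of 4.10 ± 0.12 on the log2 scale (adjusted p = 4.94e-28) is uncertain in size. TENM4, a teneurin that acts in cell adhesion, had 2.52, 3.01 and 3.92 at 300 µM against 6.29, 6.48 and 6.62 in vehicle and also ended under 4. The group mean stayed above that limit for GJB2, a gap-junction connexin, with 2.63, 4.61 and 5.14 at 300 µM and 7.16, 7.49 and 7.98 in vehicle, and for GPC6, a glypican that carries heparan sulfate, with 5.37, 6.63 and 6.90 at 300 µM and 8.65, 9.50 and 9.91 in vehicle. The lowest GJB2 value at 300 µM, that of number 5, was itself under 4. GJB2 fell by 3.16 ± 0.23 on the log2 scale and GPC6 by 3.08 ± 0.17. The cyclic-AMP phosphodiesterase PDE7B fell by 2.89 ± 0.17, the granin SCG2 by 2.75 ± 0.23, the pseudokinase TRIB2 by 2.66 ± 0.19, the hedgehog-binding HHIP by 2.65 ± 0.15, the adaptor SORBS2 by 2.64 ± 0.21, the thrombin receptor F2R by 2.61 ± 0.18 and the RNA-binding BICC1 by 2.51 ± 0.14. RPS6KA2, a ribosomal S6 kinase of the MAPK pathway, GALNT15, a mucin-type glycosyltransferase, the vesicle-fusion protein SNAP25 and the actin-binding SHROOM2 fell to means under 4 at 300 µM, against vehicle means of 7.03 ± 0.47, 6.12 ± 0.80, 6.63 ± 0.38 and 6.16 ± 0.24. Every array of the 300 µM group was below every vehicle array for each of these falls.

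**Figure D1:**
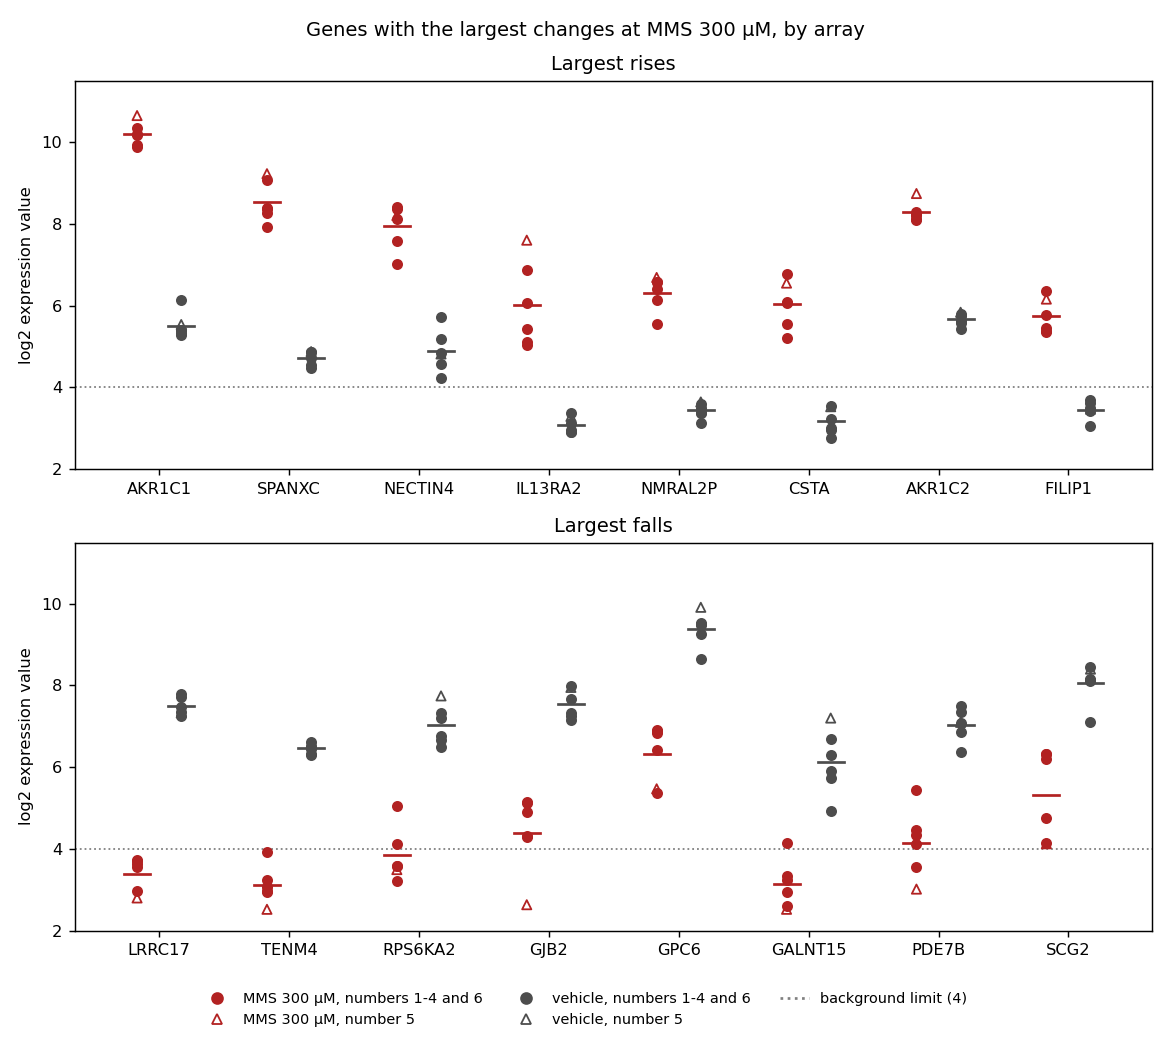
Log2 expression values (vertical axis) of the 8 genes with the largest rises (upper panel) and the 8 with the largest falls (lower panel), with the 6 arrays of MMS 300 µM to the left of the 6 vehicle arrays for each gene. Points are single arrays, open triangles are number 5, short lines are group means and the dotted line is the background limit of 4. The groups do not overlap for any gene drawn, and LRRC17, TENM4, RPS6KA2 and GALNT15 end under the limit at 300 µM.

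The starts of AKR1C1 and AKR1C2 are printed because these genes carry 2 of the largest rises, that of HSPA1A because it rose among the heat shock genes, and that of RAD51C because it had the largest rise among the recombination genes. The sequences are from RefSeq (build GRCh38.p14), run from 250 bases before to 50 bases after the gene's start and read 5′ to 3′ on the gene's strand. AKR1C1 lies at chr10:4963165-4963464 (plus strand), AKR1C2 at chr10:5003808-5004107 (minus strand), HSPA1A at chr6:31815293-31815592 (plus strand) and RAD51C at chr17:58692323-58692622 (plus strand). Capitals mark a heat shock element, searched as GAANNTTC on both strands, in the first 3, and a cyclic-AMP response element, searched as TGACGTCA, in the last.
AKR1C1: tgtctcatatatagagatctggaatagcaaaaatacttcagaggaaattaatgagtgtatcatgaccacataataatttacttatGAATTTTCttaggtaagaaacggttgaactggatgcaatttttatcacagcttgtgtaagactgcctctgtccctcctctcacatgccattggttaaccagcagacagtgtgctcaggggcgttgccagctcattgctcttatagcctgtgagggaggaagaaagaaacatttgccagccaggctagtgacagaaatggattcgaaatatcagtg
AKR1C2: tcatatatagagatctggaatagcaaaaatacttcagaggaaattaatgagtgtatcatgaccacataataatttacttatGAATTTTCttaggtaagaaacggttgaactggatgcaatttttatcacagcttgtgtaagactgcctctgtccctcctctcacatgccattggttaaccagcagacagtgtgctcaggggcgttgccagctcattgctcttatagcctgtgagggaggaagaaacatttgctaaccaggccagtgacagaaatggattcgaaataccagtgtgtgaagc
HSPA1A: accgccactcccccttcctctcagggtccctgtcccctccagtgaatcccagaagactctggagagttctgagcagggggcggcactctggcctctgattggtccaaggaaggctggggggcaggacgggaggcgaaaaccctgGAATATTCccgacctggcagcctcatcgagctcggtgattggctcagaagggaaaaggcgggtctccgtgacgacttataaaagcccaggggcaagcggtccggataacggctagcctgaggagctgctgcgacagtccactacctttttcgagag
RAD51C: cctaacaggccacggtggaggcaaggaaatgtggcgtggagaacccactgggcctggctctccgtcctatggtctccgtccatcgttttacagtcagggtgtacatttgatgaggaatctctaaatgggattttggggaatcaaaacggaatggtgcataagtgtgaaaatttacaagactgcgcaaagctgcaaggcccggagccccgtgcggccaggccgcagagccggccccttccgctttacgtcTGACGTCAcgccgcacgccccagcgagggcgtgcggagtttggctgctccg
The AKR1C1 and AKR1C2 windows share an unbroken run of 245 bases, which holds the marked letters. The letters TGACGTCA stood in 24 of 434 promoters of genes that rose (5.53%) and 21 of 748 of genes that fell (2.81%), against 3.29% of all genes tested with a promoter and 1.98% of all 27305 promoters. GAANNTTC stood in 5.99% of promoters of genes that rose and 4.28% of those that fell, against 4.75% of genes tested and 6.87% of all promoters. The antioxidant element, searched as TGACNNNGC, was in 14.1% of promoters of genes that rose and 11.1% of those that fell, against 15.3% of genes tested and 13.6% of all promoters. The AP-1 letters TGANTCA were in 3.69% of promoters of genes that rose and 5.61% of those that fell (4.75% of genes tested), and the letters TTTGAA of the cell-cycle homology region were in 10.4% of promoters of genes that rose and 13.0% of those that fell (9.93% of genes tested). The letters TGATGNAA of the ATF4 composite element were in 2.07% of promoters of genes that rose and 2.41% of those that fell (1.81% of genes tested). A match is a description of these letters and not a bound site. A promoter was matched by symbol for 9902 of the 12070 genes tested.

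Many genes that p53 is known to activate were higher at 300 µM. Of 38 listed arrest and feedback targets, 23 rose and none fell, with a median change of 0.66, and without number 5 the counts were 21 and 0. CDKN1A, the cyclin-dependent kinase inhibitor p21, had 9.67, 9.73 and 9.89 at 300 µM and 8.20, 8.39 and 8.67 in vehicle. It rose by 1.35 ± 0.08 (adjusted p = 2.83e-17), and the groups did not overlap. MDM2, the ubiquitin ligase that degrades p53, had 10.34, 10.65 and 10.72 at 300 µM, against 9.21, 9.63 and 9.92 in vehicle, a rise of 1.02 ± 0.07 (adjusted p = 2.85e-15). SFN, the stratifin that holds cells in G2, had 8.02, 8.35 and 8.77 at 300 µM and 5.93, 6.34 and 6.46 in vehicle and rose by 2.08 ± 0.16, the largest rise of the list. The stress kinase PLK3 rose by 1.49 ± 0.13, the quinone reductase homologue TP53I3 by 1.48 ± 0.12, the KIT ligand KITLG by 1.48 ± 0.08 and the ceramidase ACER2 by 1.71 ± 0.17, with a vehicle mean under 4. GDF15, a secreted stress cytokine, had 11.55, 11.78 and 12.79 at 300 µM and 10.88, 11.17 and 11.86 in vehicle. The groups overlapped, and the rise within numbers was 0.69 ± 0.06 (adjusted p = 4.18e-13).

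Apoptosis regulators changed less uniformly: 3 of 19 rose and 1 fell, and 4 rose and 1 fell without number 5. FAS, a death receptor, had 8.67, 8.81 and 8.89 at 300 µM and 7.04, 7.53 and 7.76 in vehicle, without overlap, and rose by 1.33 ± 0.10 (adjusted p = 1.34e-14). The survival factor BCL2L1 also rose, by 0.83 ± 0.08, and did not overlap between the groups. BBC3, the BH3-only protein PUMA, rose by 0.62 ± 0.19 (adjusted p = 0.0053) with overlapping groups, and was not called without number 4 (change 0.58) or without the block (adjusted p = 0.0656). BCL2L11, the BH3-only protein BIM, fell by 0.72 ± 0.11, but most of its probe sets were not called.

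Of 24 genes of direct reversal and base excision repair 1 rose and 1 fell, against 4.40% and 7.59% of all genes tested. Without number 5 the counts were 2 and 0. MGMT, which removes methyl groups from guanine oxygen, had 4.40, 4.67 and 4.84 at 300 µM and 4.80, 5.28 and 5.56 in vehicle. Its difference of -0.58 ± 0.13 (adjusted p = 1.97e-04) missed the fold limit with all numbers and passed it when number 1, 2, 3 or 4 was left out, at -0.59 to -0.66. MPG, the glycosylase that excises methylated adenine, had 8.19, 8.44 and 8.92 at 300 µM and 8.59, 8.92 and 9.24 in vehicle, a difference of -0.42 ± 0.07 under the fold limit. ALKBH2 and ALKBH3, the oxidative demethylases of DNA, differed by 0.27 ± 0.07 and 0.20 ± 0.06, also under it. PARP1, the sensor of strand breaks, differed by 0.02 ± 0.07 (adjusted p = 0.828) and POLB, the gap-filling polymerase, by 0.05 ± 0.06 (adjusted p = 0.483), each with overlapping groups. APTX, which trims aborted ligation ends, had 8.09, 8.40 and 8.46 at 300 µM and 7.15, 7.55 and 7.91 in vehicle, did not overlap and rose by 0.78 ± 0.06. The scaffold XRCC1 fell by 0.59 ± 0.15 to 4.66 ± 0.51 at 300 µM, against 5.26 ± 0.30 in vehicle, and was not called without number 3, 5 or 6, at -0.57, -0.40 and -0.53.

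In the other repair lists more genes rose than fell. In homologous recombination and the Fanconi anemia pathway, 5 of 18 genes rose and none fell (6 and 0 without number 5), and the median change was 0.44. RAD51C, a gene of homologous recombination and crosslink repair, had 8.62, 9.20 and 9.49 at 300 µM, against 7.52, 8.24 and 8.58 in vehicle, without overlap, and rose by 0.99 ± 0.07 (adjusted p = 6.37e-15). The core-complex gene FANCB rose by 0.73 ± 0.13 and FANCI, the partner of FANCD2, by 0.69 ± 0.10, with overlapping groups. BRCA1 rose by 0.62 ± 0.09 and the helicase BLM by 0.59 ± 0.10, but BRCA1 was not called without number 6 (0.58), nor BLM without number 1, 2 or 4 (0.57, 0.54 and 0.58). Of 17 genes of translesion synthesis and damage tolerance 3 rose and none fell: the lesion-bypassing polymerase POLH by 0.87 ± 0.06, the end-joining polymerase POLQ by 0.78 ± 0.10 and the ubiquitin ligase RAD18 by 0.76 ± 0.13. POLH had 8.54, 8.70 and 8.82 at 300 µM and 7.68, 7.83 and 7.97 in vehicle, without overlap. Of 18 mismatch and nucleotide excision repair genes 3 rose and 1 fell. The lesion sensors XPC and DDB2, both p53 targets too, rose by 0.93 ± 0.08 and 0.67 ± 0.08 without overlap, and ERCC6, the transcription-coupled repair factor, fell by 1.05 ± 0.10 without overlap. Of 22 checkpoint genes 3 rose and 2 fell (3 and 1 without number 5): RAD50 (0.91 ± 0.08), ATRIP (0.93 ± 0.13) and CDC25A (0.77 ± 0.10) rose, and the mitotic inhibitor kinase WEE1 fell by 0.74 ± 0.09 without overlap. The phosphatase CDC25B fell by 0.71 ± 0.14 and was not called without number 5 (-0.48).

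Histone genes, most of which are expressed for DNA replication, had the highest share of falls among the cell-cycle lists. Whether their values in RNA amplified from the 3′ end follow DNA replication was not tested. Of 18 histone genes 9 fell and none rose, with a median change of -0.72, and the counts were the same without number 5. H2AC6 had 5.65, 6.58 and 6.84 at 300 µM and 7.96, 8.28 and 8.56 in vehicle, a fall of 1.85 ± 0.13 (adjusted p = 5.22e-15) without overlap. H2BC5 had 6.00, 7.04 and 7.45 at 300 µM and 7.78, 8.24 and 8.43 in vehicle, and the linker histone H1-2 had 6.75, 7.20 and 7.74 at 300 µM and 8.16, 8.46 and 8.86 in vehicle. Falls were 1.30 ± 0.13 for H2BC5, 1.29 ± 0.12 for H1-2, 1.44 ± 0.14 for H2BC21 and 1.40 ± 0.16 for H2BC4, and the 300 µM and vehicle arrays did not overlap for any of these genes. Histone genes within a cluster are near-identical, so probe sets may share signal, and CENPA, counted among the 9, is a centromeric histone that is not replication-dependent. The histone list was also low in the vehicle array of number 5, at 8.04 against 8.36 to 8.52 in the other vehicle arrays.

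Genes of the G1/S transition and DNA replication moved in both directions, with 7 of 36 higher and 4 lower (6 and 4 without number 5) and a median change of 0.12. The licensing factor CDT1 rose by 0.84 ± 0.09 and the replication initiator MCM10 by 0.81 ± 0.11. The helicase subunit MCM6 had 8.56, 9.07 and 9.31 at 300 µM and 9.33, 10.05 and 10.22 in vehicle, did not overlap and fell by 0.91 ± 0.10. The polymerase subunit POLA1 fell by 0.78 ± 0.09 and the repressor E2F8 by 1.11 ± 0.15, both with overlap. Of 46 genes of G2 phase and mitosis 12 fell and none rose, with a median change of -0.34, but without number 5 only 3 fell and the median was -0.09. The kinesin KIF20A had 4.70, 7.87 and 8.67 at 300 µM and 8.21, 8.80 and 9.05 in vehicle, and its lowest value at 300 µM is that of number 5. It fell by 1.25 ± 0.24 with all numbers (adjusted p = 3.42e-05), and its change without number 5 was -0.80. The mitotic cyclins CCNB1 and CCNB2 fell by 0.84 ± 0.21 and 0.77 ± 0.17 with all numbers and were not called without number 5 (-0.43 and -0.46). Of 11 genes of the nuclear lamina and senescence 2 fell (1 without number 5): CDKN1B, the kinase inhibitor p27, fell by 1.08 ± 0.11 without overlap, opposite in direction to CDKN1A.

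**Figure D2:**
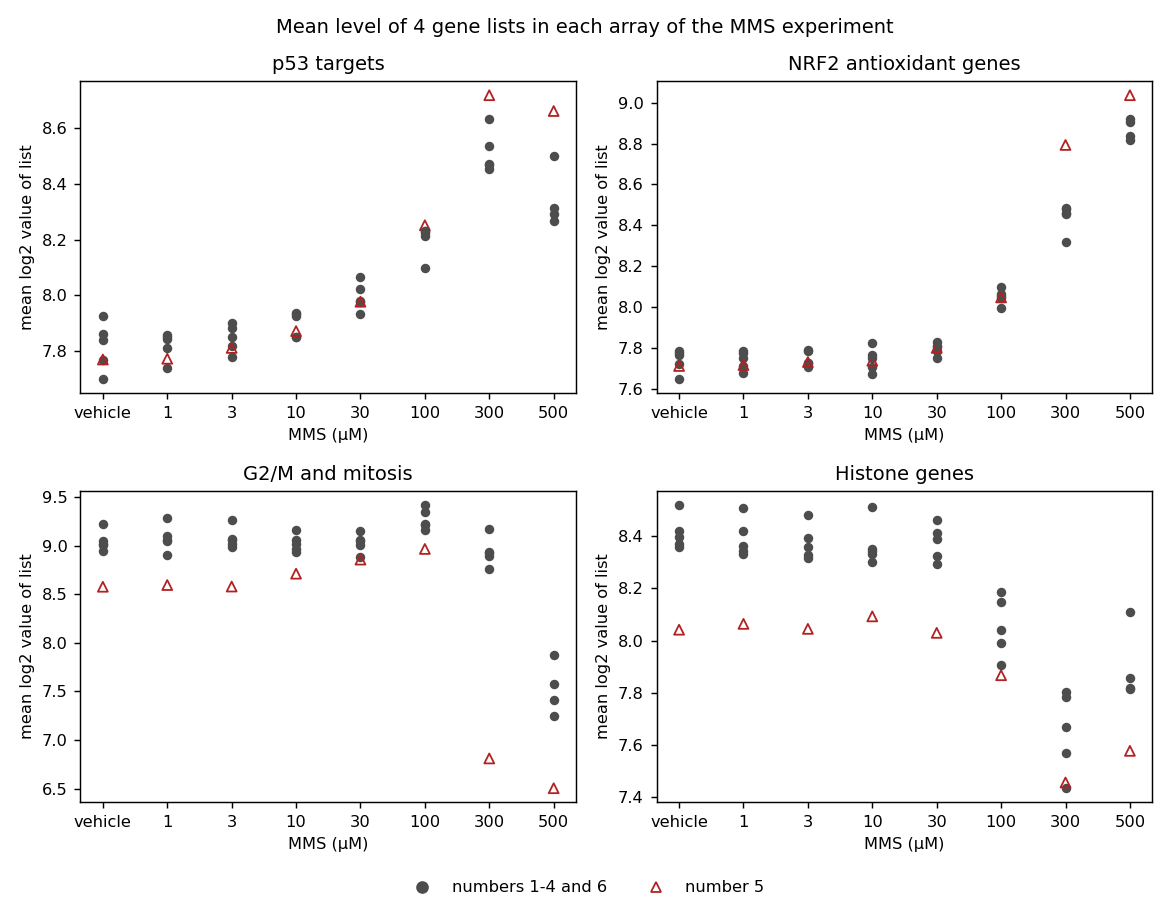
Mean log2 value of the measured genes of 4 lists (vertical axes, which differ between panels) in each array of the MMS experiment, against dose from vehicle to 500 µM; points are arrays and open triangles are number 5. The G2/M panel shows number 5 at 6.81 in the 300 µM group, below the 8.76 to 9.17 of the other arrays, and the histone panel shows the lower levels at 300 µM in all numbers.

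Many NRF2 antioxidant genes were higher at 300 µM. Of 29 genes 12 rose and none fell, with a median change of 0.51, and the counts were the same without number 5. NQO1, the quinone reductase used as a standard NRF2 readout, had 11.03, 11.12 and 11.35 at 300 µM and 9.76, 9.84 and 9.95 in vehicle, and rose by 1.31 ± 0.05 (adjusted p = 2.58e-24) without overlap. SLC7A11, the cystine importer that feeds glutathione synthesis and is also an ATF4 target, had 9.48, 10.03 and 10.53 at 300 µM and 7.62, 8.48 and 8.76 in vehicle, a rise of 1.63 ± 0.13 without overlap. HMOX1, heme oxygenase, had 6.45, 6.78 and 7.66 at 300 µM and 6.12, 6.58 and 7.21 in vehicle, and its difference of 0.28 ± 0.15 (adjusted p = 0.128) was not called. SQSTM1, the autophagy receptor that binds KEAP1, rose by 0.74 ± 0.09, although most of its probe sets were not called. Targets of the aryl hydrocarbon receptor, which shares NQO1 with NRF2, were split, with 2 of 6 higher and 2 lower. CYP1A1, the classical target, rose by 1.27 ± 0.12 to 4.52 ± 0.38 at 300 µM, with a vehicle mean under 4, while the receptor AHR fell by 0.67 ± 0.08 without overlap and its repressor AHRR fell by 0.99 ± 0.14 to a mean under 4.

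The other stress lists did not move as a block. In the ATF4 integrated stress response, which slows translation and raises amino acid supply, 5 of 32 genes rose and 8 fell (6 and 6 without number 5). ATF3, a transcription factor also induced by p53, had 6.61, 6.97 and 7.33 at 300 µM and 4.56, 4.76 and 5.59 in vehicle, without overlap, and rose by 2.00 ± 0.13 (adjusted p = 5.06e-16). STC2, a secreted glycoprotein, had 7.14, 7.81 and 9.09 at 300 µM and 9.39, 9.61 and 10.11 in vehicle and fell by 1.82 ± 0.11 without overlap. The lipoprotein receptor VLDLR fell by 1.60 ± 0.12 and the mTOR inhibitor DDIT4 by 1.18 ± 0.09. DDIT3, the transcription factor CHOP, fell by 0.62 ± 0.13 with overlapping groups, and was not called without number 1, 3 or 5 (-0.56, -0.58 and -0.58) or without the block (adjusted p = 0.177). Of 25 endoplasmic reticulum genes 3 fell and none rose: the chaperone HSPA5 by 0.72 ± 0.07, the degradation component HERPUD1 by 1.08 ± 0.07 and the transcription factor XBP1 by 1.18 ± 0.08, all without overlap. Of 20 cytosolic heat shock genes 4 rose and none fell (3 and 0 without number 5). HSPA1A, an inducible HSP70, had 10.30, 10.40 and 10.68 at 300 µM and 8.48, 9.61 and 9.68 in vehicle, rose by 1.08 ± 0.13 (adjusted p = 3.66e-09) and may share signal with its copy HSPA1B, and its relative HSPA4L rose by 1.09 ± 0.12.

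Hypoxia and glycolysis genes fell in part, with 7 of 28 lower and none higher (6 and 0 without number 5) and a median change of -0.36. The aldolase ALDOC had 6.70, 7.01 and 7.69 at 300 µM and 8.31, 8.76 and 9.84 in vehicle and fell by 1.76 ± 0.12 (adjusted p = 2.08e-15) without overlap. LOX, which crosslinks collagen, fell by 1.27 ± 0.11, VEGFA, the angiogenic growth factor, by 0.86 ± 0.09, the glucose transporter SLC2A3 by 0.97 ± 0.09 and the collagen hydroxylase P4HA1 by 0.84 ± 0.08. In lipid synthesis the desaturase SCD fell by 0.94 ± 0.15 and the desaturase FADS1 rose by 0.92 ± 0.08, both without overlap, and 1 of 21 genes rose and 2 fell (2 and 1 without number 5).

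The genes of the extracellular matrix had the highest share of falls of all lists. Of 30 collagens and matrix glycoproteins 20 fell and none rose, with a median change of -0.998, and 19 fell without number 5. VCAN, the large proteoglycan versican, had 5.79, 7.04 and 7.81 at 300 µM and 8.73, 9.33 and 9.75 in vehicle, a fall of 2.39 ± 0.16 (adjusted p = 6.23e-16). COL13A1, a transmembrane collagen, had 7.06, 8.47 and 9.08 at 300 µM against 10.47, 10.76 and 11.03 in vehicle, a fall of 2.42 ± 0.18. The groups did not overlap for either gene. The matricellular thrombospondins THBS1 and THBS2 fell by 2.11 ± 0.26 and 1.87 ± 0.17, and COL1A1, a fibrillar collagen, by 1.73 ± 0.20, although most of its probe sets were not called. FN1, fibronectin, which is listed with the mesenchymal markers, had 9.93, 10.84 and 11.15 at 300 µM and 11.80, 12.11 and 12.31 in vehicle, a fall of 1.36 ± 0.09 without overlap. In that list, 6 of 14 genes fell and 1 rose (5 and 1 without number 5): SPARC fell by 0.86 ± 0.09, COL6A1 by 0.90 ± 0.06, and the transcription factor SNAI2 rose by 0.73 ± 0.07.

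Some matrix receptors and remodelling enzymes fell as well. Of 14 integrins 7 fell and none rose (6 and 0 without number 5), with a median change of -0.58. ITGA10, a collagen-binding subunit, had 4.71, 5.18 and 5.82 at 300 µM and 6.62, 7.38 and 7.99 in vehicle and fell by 2.01 ± 0.15 (adjusted p = 3.12e-14), and the laminin-binding ITGA6 fell by 0.95 ± 0.13, both without overlap. ITGB8, which activates latent TGF-beta, fell by 2.24 ± 0.14 to a mean under 4, and ITGA11 and ITGA4 fell by 1.27 ± 0.14 and 0.75 ± 0.08. Of 20 cadherins, protocadherins and guidance genes 12 fell and none rose (11 and 0 without number 5), with a median change of -0.80. The semaphorin co-receptor NRP2 had 5.82, 5.97 and 6.92 at 300 µM and 7.59, 8.02 and 8.42 in vehicle and fell by 1.88 ± 0.13, the teneurin TENM2 fell by 1.91 ± 0.22, the netrin NTN4 by 1.52 ± 0.10 and the mesenchymal cadherin CDH11 by 1.49 ± 0.13. Of 16 matrix proteases and plasminogen activators 7 fell and none rose (6 and 0 without number 5). PLAT, tissue plasminogen activator, had 8.20, 9.29 and 10.59 at 300 µM and 10.84, 11.15 and 11.69 in vehicle and fell by 1.90 ± 0.19, the gelatinase MMP2 fell by 1.13 ± 0.10, MMP16 by 1.04 ± 0.17, ADAM19 by 1.06 ± 0.07, and the protease inhibitor TIMP3 by 2.11 ± 0.18 to a mean under 4. Among 19 genes of heparan sulfate and proteoglycans 2 rose and 4 fell (1 and 4 without number 5): beside GPC6, the syndecan SDC2 fell by 1.82 ± 0.14 and the hyaluronan synthase HAS2 by 1.29 ± 0.15, and GPC1, another glypican, had 7.86, 8.14 and 8.61 at 300 µM and 6.63, 6.80 and 7.18 in vehicle and rose by 1.31 ± 0.10 without overlap. The 2 glypicans changed in opposite directions. Of 20 immediate early genes 2 rose and 3 fell (2 and 2 without number 5), among them IER5, which rose by 0.89 ± 0.06, and the nuclear receptor NR4A2, which fell by 0.86 ± 0.14.

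**Figure D3:**
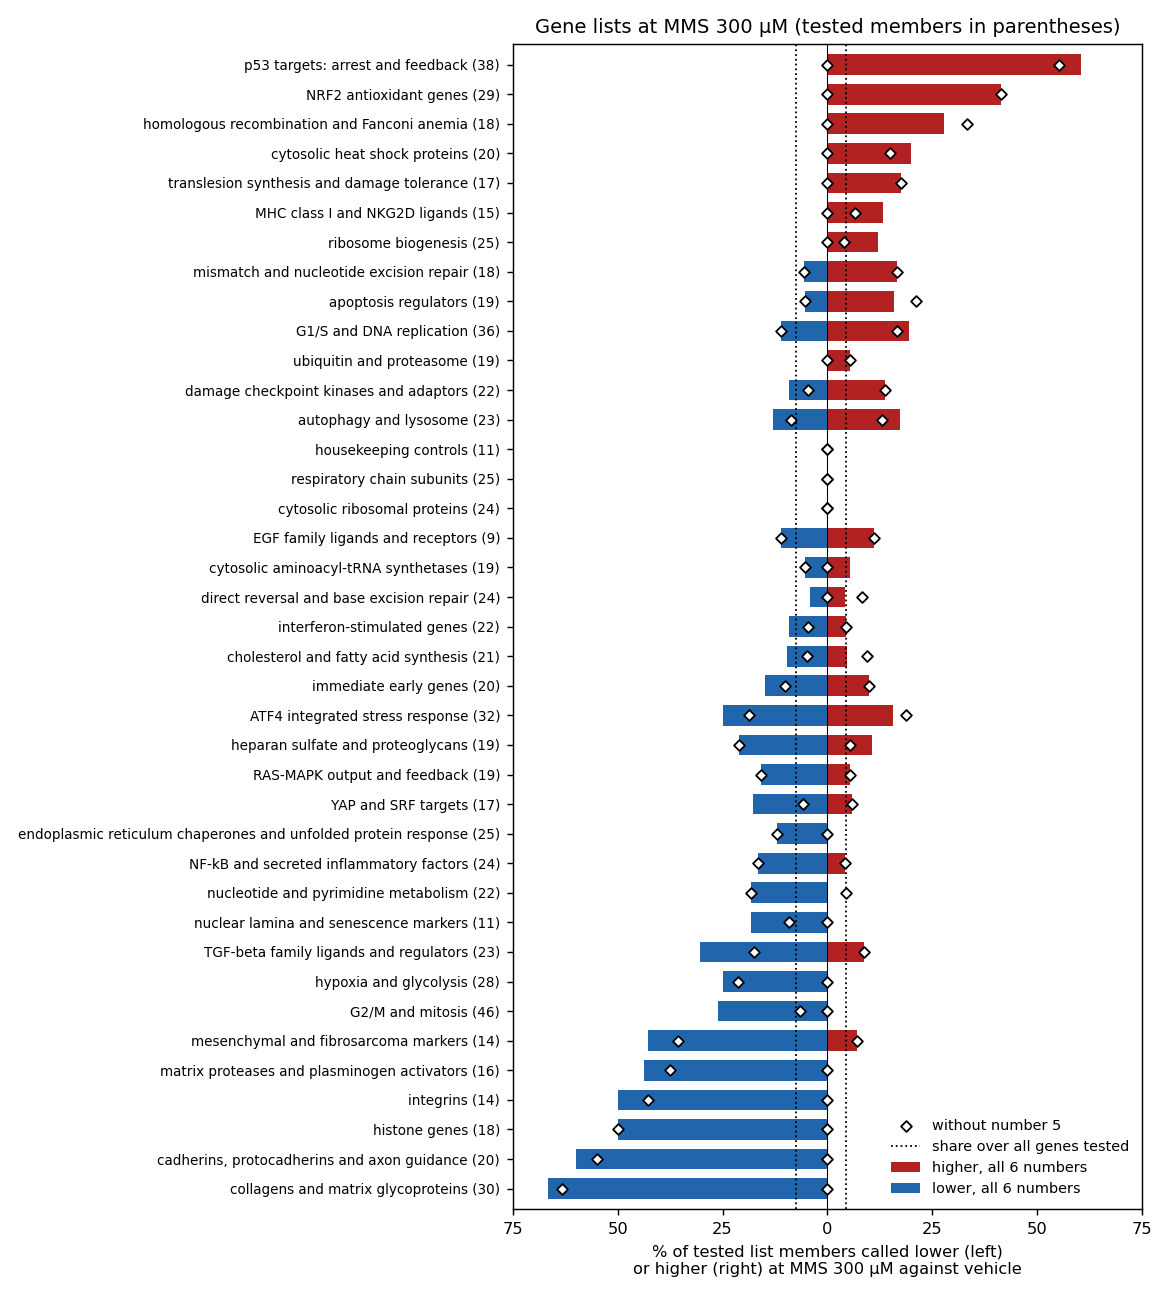
Share of the tested members of each gene list with at least 9 tested members that was called higher (bars to the right) or lower (bars to the left) at MMS 300 µM against vehicle, with the number tested in parentheses. Diamonds give the shares without number 5 and dotted lines the shares over all genes tested, 4.40% higher and 7.59% lower; p53 targets and NRF2 genes extend to the right, and matrix, cadherin, histone and integrin genes to the left.

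Signalling ligands were mixed. Of 23 TGF-beta family ligands and regulators 2 rose and 7 fell, and without number 5 the counts were 2 and 4. TGFB2, a TGF-beta ligand, had 4.45, 6.69 and 7.29 at 300 µM and 8.12, 8.79 and 8.98 in vehicle, without overlap, and fell by 2.34 ± 0.26 (adjusted p = 4.76e-10). The activin subunit INHBA fell by 1.49 ± 0.11, the receptor TGFBR2 by 0.82 ± 0.13 and the BMP antagonist NOG by 0.87 ± 0.18, while the ligand BMP2 rose by 1.22 ± 0.21 to 5.45 ± 1.11 at 300 µM, against 4.23 ± 0.21 in vehicle, with overlap. Of 9 EGF family genes 1 rose and 1 fell: ERRFI1, a feedback inhibitor of EGFR, fell by 1.29 ± 0.10 without overlap and the ligand NRG1 rose by 0.91 ± 0.14 with overlap. Of 19 genes of RAS-MAPK output 1 rose and 3 fell, among them the phosphatase DUSP4, which fell by 0.68 ± 0.09. PTGS2, the inducible cyclooxygenase, had 4.33, 5.12 and 6.57 at 300 µM and 6.43, 7.21 and 7.46 in vehicle, which overlapped, and fell by 1.86 ± 0.19 (adjusted p = 4.31e-11). In the list of NF-kB and inflammatory factors it belongs to, 1 of 24 genes rose and 4 fell. Of 22 interferon-stimulated genes 1 rose and 2 fell (1 and 1 without number 5): OAS1, which makes oligoadenylates, fell by 1.58 ± 0.11 and IFI44 rose by 1.34 ± 0.14, both without overlap. Of 17 YAP and SRF targets 1 rose and 3 fell (1 and 1 without number 5): the matricellular CCN2 fell by 0.96 ± 0.14 and the smooth-muscle protein TAGLN rose by 1.35 ± 0.18, the first without and the second with overlap.

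Among lists of general cell functions, none of 24 cytosolic ribosomal protein genes, 25 respiratory chain genes, 7 metallothioneins or 11 housekeeping genes was called. In limma 3, 9, 7 and 8 of them had an unadjusted p under 0.05, but a call also needed the 1.5-fold limit. Of 19 proteasome and ubiquitin genes 1 rose, and of 25 ribosome biogenesis genes 3 rose (1 without number 5), led by POLR1A, the large subunit of RNA polymerase I, at 0.91 ± 0.12. Of 19 cytosolic aminoacyl-tRNA synthetases, AARS1 fell by 0.80 ± 0.07 and SARS1 rose by 0.65 ± 0.06, the second not called without number 5 (0.58). Of 15 MHC class I and NKG2D ligand genes 2 rose (1 without number 5), among them the checkpoint ligand CD274 by 0.70 ± 0.10. The other CD274 probe set differed by 0.12 and was not called. Of 23 autophagy and lysosome genes 4 rose and 3 fell (3 and 2 without number 5): the lysosomal galactosidase GLA had 9.71, 9.94 and 10.04 at 300 µM and 7.98, 8.55 and 8.71 in vehicle and rose by 1.44 ± 0.08 without overlap, and the sialidase NEU1 rose by 0.83 ± 0.08. DPYD, which degrades pyrimidines, had 4.49, 7.22 and 8.06 at 300 µM and 8.77, 8.89 and 9.04 in vehicle, fell by 1.99 ± 0.25 without overlap, and was the largest of 4 falls among 22 genes of nucleotide metabolism, where none rose (1 without number 5). Only 1 of the 2 DPYD probe sets was called, and the other differed by -0.08. Of the 5 tested members of the wider epithelial list 1 rose (2 without number 5): IVL, an epidermal envelope protein, rose by 1.26 ± 0.16 to 5.37 ± 0.42 at 300 µM, against 4.11 ± 0.23 in vehicle. The endothelial marker MYCT1 rose by 1.78 ± 0.24 to 4.26 ± 1.08 at 300 µM, with a vehicle mean under 4, and its 300 µM mean was under 4 without number 5. The other MYCT1 probe set differed by 0.13 and was not called.

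Falls were more frequent among long genes. Gene length, from start to end in RefSeq, was known for 12057 of the 12070 genes (99.9%). Of 436 genes longer than 300 kb 31.9% fell and 3.21% rose, and of 1814 genes of 100 to 300 kb 13.3% fell and 2.70% rose. Genes of 30 to 100 kb fell in 6.25% of cases, those of 10 to 30 kb in 4.35% and those under 10 kb in 5.75%, against 7.59% of all genes tested. Without number 5 the share that fell was 26.4% above 300 kb and 4.99% under 10 kb. Among genes with a vehicle mean of at least 6, 41.6% of the 250 longest-class genes fell. The median length was 70.8 kb for genes that fell, 23.3 kb for genes that rose and 29.1 kb for the rest. Of the genes named above, DPYD spans 843 kb, TENM4 788 kb, RPS6KA2 453 kb and BICC1 319 kb, whereas LRRC17, the largest fall, spans 32.1 kb. Not every long gene fell: NRG1, which rose with overlapping groups, spans 1130 kb. Its 300 µM value in number 5 was 5.51, against a vehicle mean of 6.20, and its 500 µM mean was 5.59. No p-value is given because genes are not independent replicates, and the part of length in single changes was not tested.

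**Figure D4:**
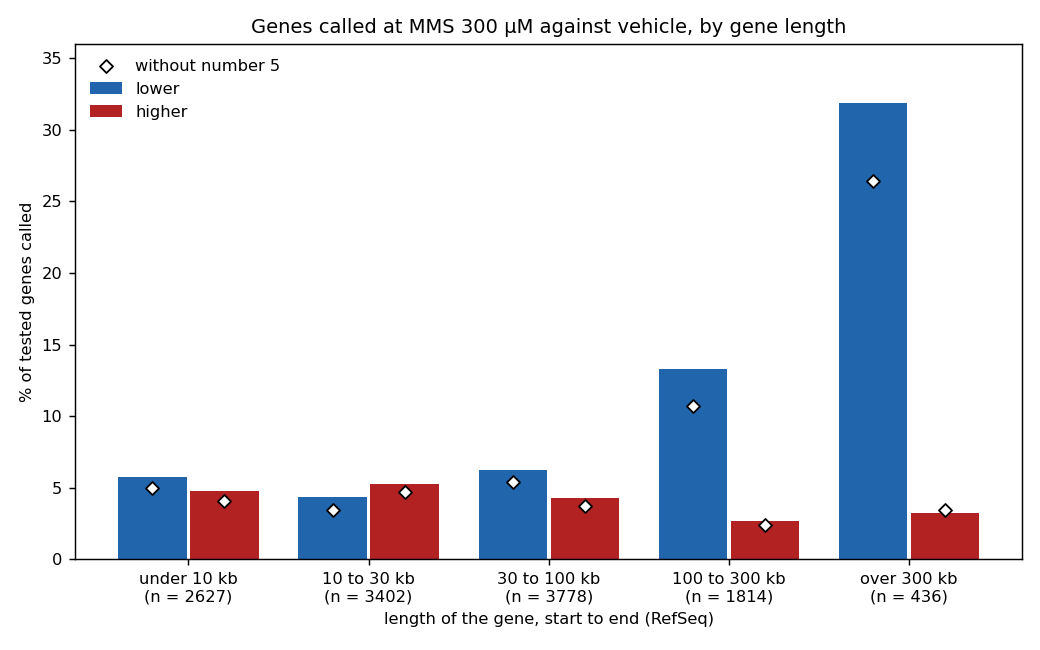
Share of tested genes called lower (blue) or higher (red) at MMS 300 µM against vehicle, in 5 classes of RefSeq gene length with the number of genes under each class. Diamonds are the shares without number 5; the lower share reaches 31.9% above 300 kb and lies between 4.35% and 6.25% in the classes under 100 kb.

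The 300 µM group lay between doses that differed strongly in extent. Against the same vehicle arrays, 281 genes (2.33%) were called at 100 µM, with 60 higher (0.497%) and 221 lower (1.83%), and 4015 (33.3%) at 500 µM, with 2054 higher (17.0%) and 1961 lower (16.2%). Set directly against 100 µM, 518 genes (4.29%) differed at 300 µM, with 126 higher (1.04%) and 392 lower (3.25%). The counts were 352 without number 5 and 625 at most when another number was left out. Set against 300 µM, 2182 genes (18.1%) differed at 500 µM, with 915 higher (7.58%) and 1267 lower (10.5%). These comparisons share arrays, so their values are set side by side below without a measure of overlap.

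Within the lists, the p53 targets counted 12 of 38 members as higher at 100 µM, 23 at 300 µM and 19, with 1 lower, at 500 µM. The NRF2 genes had 4, 12 and 20 of 29 higher, and the matrix genes 10, 20 and 22 of 30 lower at these doses. Histone genes had 6, 9 and 7 of 18 lower, and from 300 to 500 µM 7 of them rose and 2 fell. Of 46 G2/M genes limma with the 1.5-fold limit called none at 100 µM. There 12 had an unadjusted p under 0.05 and the list's median difference from vehicle was 0.28 on the log2 scale. The same limits called 12 lower at 300 µM (3 without number 5) and 45 lower at 500 µM. Of 18 recombination genes none was called at 100 µM, where 13 had an unadjusted limma p under 0.05 and the median difference was 0.32. There RAD51C, BLM, BRCA1, FANCI and FANCB missed only the 1.5-fold limit, with adjusted p from 3.61e-06 (RAD51C) to 0.0270 (FANCB) in limma. At 300 µM 5 were higher, and at 500 µM 3 were higher and 2 lower.

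Several genes moved further at each step. AKR1C1 averaged 7.83 ± 0.40 at 100 µM, 10.20 ± 0.28 at 300 µM and 10.94 ± 0.26 at 500 µM. Its 300 µM level was 2.37 ± 0.15 above that at 100 µM (adjusted p = 2.26e-15), and its 500 µM level 0.70 ± 0.16 above that at 300 µM. COL13A1 fell by a further 2.82 ± 0.19 from 300 to 500 µM, DPYD by 3.84 ± 0.27, TENM2 by 3.81 ± 0.23, PLAT by 3.04 ± 0.20 and PTGES, the prostaglandin E synthase, by 3.38 ± 0.20, the 5 largest falls at that step, with means under 4 at 500 µM for DPYD, TENM2 and PTGES. From 100 to 300 µM the largest rises were those of CSTA (2.40 ± 0.15), AKR1C1, IL13RA2 (2.09 ± 0.23), SPANXC (2.04 ± 0.16) and MYCT1 (1.76 ± 0.24), the last with a 300 µM mean under 4 once number 5 was left out. CSTA, IL13RA2 and MYCT1 had 100 µM means under 4. The largest falls from 100 to 300 µM were those of LRRC17 (2.39 ± 0.12), GJB2 (2.21 ± 0.23), TENM4 (2.06 ± 0.12), TMEM71 (1.96 ± 0.14) and SCG2 (1.82 ± 0.23), with 300 µM means under 4 for LRRC17, TENM4 and TMEM71.

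The 5 largest rises from 300 to 500 µM were those of HSPA6, MYCT1, MMP3, HMOX1 and EGR1, of which HSPA6, MMP3 and HMOX1 had not been called at 300 µM against vehicle. HMOX1 averaged 10.49 ± 0.39 at 500 µM and 6.88 ± 0.42 at 300 µM, a difference of 3.65 ± 0.16 (adjusted p = 1.11e-20). The inducible heat shock gene HSPA6 rose by 6.05 ± 0.45 at this step, with 7.12 without number 5 and 5.45 without number 4, and its 300 µM mean was under 4. The SD of HSPA6 was 2.56 at 500 µM and 0.21 at 300 µM, so this SE may be too small. The stromelysin MMP3 rose by 4.23 ± 0.23, also with a 300 µM mean under 4, and MYCT1 by 4.38 ± 0.25. EGR1, an immediate early transcription factor, fell by 0.78 ± 0.23 at 300 µM against vehicle with overlap, a call lost without number 4 (-0.56, under the fold limit) or without the block (adjusted p = 0.467), and most of its probe sets were not called. It rose by 2.78 ± 0.24 from 300 to 500 µM.

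Other genes that had changed at 300 µM lay closer to vehicle at 500 µM. NECTIN4 averaged 6.84 ± 0.51 at 500 µM, 0.98 ± 0.15 below the 7.95 ± 0.55 at 300 µM (adjusted p = 2.03e-07). CSTA was 1.05 ± 0.16 lower at 500 than at 300 µM, AKR1B10 1.05 ± 0.11, FILIP1 0.87 ± 0.16 and TP53I3 0.77 ± 0.13. DDB2 averaged 9.31 ± 0.18 at 100 µM, 9.30 ± 0.29 at 300 µM and 8.39 ± 0.30 at 500 µM, and its level at 500 µM was 0.92 ± 0.09 below that at 300 µM. Among genes that fell at 300 µM, H2BC5 was 1.42 ± 0.13 higher at 500 µM, H2AC6 1.06 ± 0.14, H1-2 1.06 ± 0.13 and STC2 1.32 ± 0.11. CDKN1A and NQO1 were not called at this step, with differences of 0.10 ± 0.09 (adjusted p = 0.354) and 0.11 ± 0.05 (adjusted p = 0.064) between 500 and 300 µM.

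**Figure D5:**
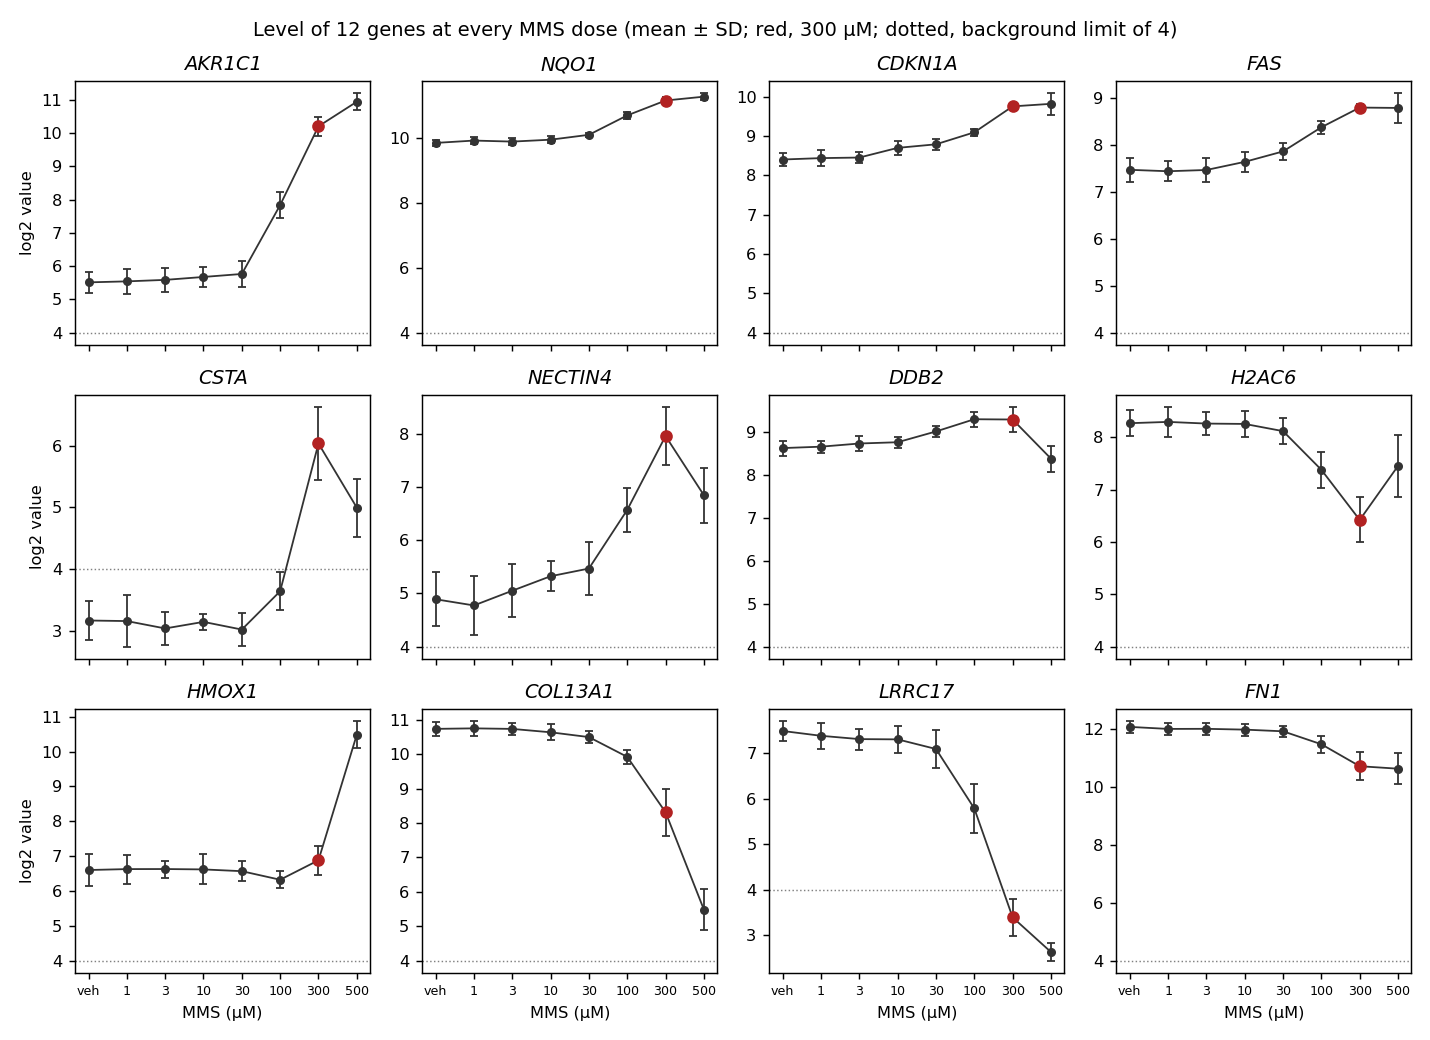
Mean log2 value ± SD of 12 genes (vertical axes differ between panels) at vehicle and each MMS dose, with 6 arrays per group and 5 at 500 µM; the red point is 300 µM and the dotted line the background limit of 4. AKR1C1 is highest at 500 µM, CSTA, NECTIN4 and DDB2 are lower at 500 than at 300 µM, H2AC6 is lowest at 300 µM, and HMOX1 is high only at 500 µM among the doses drawn.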

How the data were processed

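The deposited values are log2 expression values that the authors made with GCRMA in Partek, per the submitters' processing notes; versions and scan batches are not given in the sources used here. Of 54613 probe sets, 40914 had 1 gene symbol in the platform annotation, 864 several and 12835 none. A value of at least 4 in at least 5 of the 145 arrays was reached by 27102 probe sets, with or without a gene symbol. Of these, only probe sets with 1 gene symbol were used. The one with the highest mean over all arrays stood for its gene, leaving 12070 genes.

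Genes were tested with limma 3.58.1 in R 4.3.3 (lmFit and eBayes with trend) over all 47 MMS arrays in 8 groups, with the replicate number as a block. The numbers were taken to pair arrays because the deviations of same-numbered 300 µM and vehicle arrays from their group means correlated at 0.254 to 0.594 in all 6 pairs. Arrays of different numbers correlated at -0.084 on average and at 0.318 at most, which is above the lowest same-numbered value. A call needed a Benjamini-Hochberg adjusted p under 0.05, a 1.5-fold change and a mean of at least 4 in 1 of the groups compared. On simulated data all of 200 genes changed by 1 or 2 log2 units among 12070 were recovered for 300 µM against vehicle, with 1 false call. The changed genes were drawn from those averaging at least 6, and the noise of a gene had the same spread in every group. Genes near background, changes near the fold limit and arrays that stand apart were therefore not covered. Arrays give no read depth, and their number limits the precision.

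The comparison and the 44 gene lists were chosen with earlier results of these data known. Named genes are the 15 largest rises and falls, up to 5 called members of each list with the largest changes, the 5 largest rises and falls of each dose step, and genes of alkylation repair and standard stress readouts. Gene lengths and promoters came from RefSeq (GRCh38.p14), since the files give no coordinates. Alternatives covered the block, arrays in the fit, filter, probe-set choice, normalization, fold limit, variance model and each number left out. Some listed genes were not analysed here.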

Additional observations from a re-analysis of the deposited data

Results flagged for a closer look

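A single array stood far from the other 5 of its group, by Dixon's criterion for 6 values, in 65 of 398 sets of 6 arrays examined, over the named genes and the list means. Chance gives about 1 such case in 20. The array of number 5 was the one apart in most: 30 times low and 4 times high at 300 µM, and 15 times low and 3 times high in vehicle. The gene values in parentheses are log2 levels of that array.

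At 300 µM, number 5 was low for BLM (6.3), BRCA1 (6.84), CCNB1 (7.31), CCNB2 (7.3), CENPA (5.01), E2F8 (3.34), FANCI (7.86), GJB2 (2.63), ITGA4 (6.37), KIF20A (4.7), MDM2 (10.34), MMP16 (6.44), NRG1 (5.51), PARP1 (8.57), POLA1 (5.04), POLQ (6.98), RAD18 (6.26), SCD (8.76), TAGLN (4.49), TIMP3 (2.67) and WEE1 (7.52). The list means that were low in the same array were those of direct reversal and base excision repair (7.32), homologous recombination and Fanconi anemia (6.43), damage checkpoint kinases and adaptors (7.18), G1/S and DNA replication (7.6), G2/M and mitosis (6.81), nuclear lamina and senescence markers (7.34), cholesterol and fatty acid synthesis (7.2), cadherins with axon guidance (5.14) and nucleotide and pyrimidine metabolism (7.93). It was high for AKR1C2 (8.75), ALKBH2 (8.06) and BMP2 (7.62) and for the mean of NRF2 antioxidant genes (8.79).

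In vehicle, number 5 was low for BRCA1 (6.45), CDC25A (5.72), HSPA4L (6.37), KIF20A (8.21), MCM10 (5.78), POLA1 (6.18), POLQ (6.82), SERPINB5 (7.46) and STON2 (3.04), and for the list means of homologous recombination and Fanconi anemia (6.2), G1/S and DNA replication (7.6), histone genes (8.04), cytosolic heat shock proteins (8.6), ubiquitin and proteasome (10.54) and nucleotide and pyrimidine metabolism (8.2). It was high for LOX (10.1) and P4HA1 (10.47) and for the mean of hypoxia and glycolysis (10.18). Proliferation genes and list means were thus among the low values of number 5 in both groups, and the fall of the G2/M list at 300 µM was larger with this number than without it.

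Other numbers were apart in single cases. At 300 µM, number 4 was high for DDB2 (9.86) and for the mean of matrix proteases and plasminogen activators (8.71), and low for AKR1B10 (5.37), and number 3 was low for H2BC21 (3.93). In vehicle, number 4 was high for DDB2 (8.97), HSPA6 (3.93) and SORBS2 (8.61) and low for HHIP (8.93). Vehicle number 2 was high for CDT1 (8.95) and low for ADAM19 (8.09), number 3 was low for SCG2 (7.11) and TGFB2 (8.12) and number 6 was high for AKR1C1 (6.13). DDB2 was high in number 4 of both groups.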

How the results depend on the processing

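The count of 1447 genes changed at 300 µM against vehicle was 1400 without the replicate block, 1440 with only the 300 µM and vehicle arrays, 1447 without the 500 µM group, without a filter on low values or without a mean-variance trend, 1354 with a stricter filter, 1240 with the mean of a gene's probe sets, 1443 after quantile normalization, 1446 after median centring and 1267 with array weights. It was 454 with a 2-fold limit and 5977 with no fold limit. With each number left out in turn it ran from 1226 to 1573. The count at 500 against 300 µM was 2179 without the block and 1942 to 2460 with a number left out, and that at 300 against 100 µM was 457 and 352 to 625. Without number 5, an alternative chosen after seeing the data, the falls in the G2/M list numbered 3 in place of 12, and those in the TGF-beta family 4 in place of 7. For single genes, 2944 of 3029 values under alternatives other than the fold limit kept direction and side of the thresholds, 75 lost the call, 4 gained it and 6 changed sign. The sign changed for 2 uncalled genes only: PARP1, at -0.00 after quantile normalization and between -0.01 and 0.07 with a number left out, and POLB, between -0.00 and 0.09 with a number left out. The cause was not tested. Omitting the replicate block ended the calls of BBC3, DDIT3 and EGR1 among the genes named in the text, and no other.

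Signals near background limit these data: 51 called genes had a vehicle mean under 4 and 130 a 300 µM mean under 4, so their changes are uncertain in size. Single probe sets were named for most genes. Of 94 named called genes with several probe sets, 54 had all of them called in the same direction, none had any called in the opposite one, and in 10 most were not called. Others had 1 of 2 probe sets called, among them DPYD (the other at -0.08), MYCT1 (0.13), CD274 (0.12), ITGA11 (-0.23), F2R (-0.45), ERCC6 (-0.37) and RAD51C (0.41). A change in total RNA per cell cannot be seen after between-array normalization.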
